A study of Mus musculus with 12 samples.

Results

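The 7 primary neuroendocrine thyroid carcinomas labelled Rb1/Trp53, T1 to T7 here, were described on their own. They make up 7 of the 12 tumours of the series and were chosen by their genotype label and titles, with no use of expression values. Both named genes are tumour suppressors: Rb1 encodes the retinoblastoma protein, which holds back entry into the cell cycle, and Trp53 encodes p53. The sources used here do not give the alleles, the promoter or Cre driver, the age and sex of the mice or any pooling. Whether each tumour came from its own mouse is also not stated, and p-values below reflect only how far these 7 tumours differ. Tumours of the other genotype were not used here.

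Thyroid C cells, also called parafollicular cells, secrete calcitonin, a peptide hormone that lowers blood calcium. Carcinomas of C cells are known as medullary thyroid carcinomas, and calcitonin and the granins, acidic proteins of secretory granules, serve as their markers. Peptide hormones are made as larger precursors, which proprotein convertases cut and carboxypeptidases trim inside those granules.

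Raw counts covered 23284 genes. Counts in genes ranged from 9.11 M in T3 to 57.3 M in T5, with a median of 14.7 M. Levels are given as CPM, counts of a gene scaled to a library total of 1e6 counts in genes, and 3 counts, the floor, corresponded to 0.0523 CPM in T5 and 0.329 CPM in T3. CPM is not divided by gene length, so levels of different genes are ordered only by CPM per kb of coding length. A mean of at least 1 CPM was reached by 14526 genes, at least 10 CPM by 10634 genes, and at least 1000 CPM by 49 genes. T3 was the farthest from the others: over genes, its Pearson correlation with them was 0.820 to 0.896 on the log2 scale, with a mean of 0.855. No other pair was under 0.881. The ranges overlapped, as T1 was at 0.896 with T3 and at 0.881 with T6. The counts of variable genes are therefore given with and without T3.

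Rb1 and Trp53 transcripts were counted in every tumour. Rb1 was 80.7 CPM in T1, 70.3 in T2, 51.7 in T3, 66.2 in T4, 104 in T5, 61.7 in T6 and 62.8 in T7. Trp53 was 22.5 CPM in T1, 28.1 in T2, 27.3 in T3, 32.7 in T4, 34.4 in T5, 24.7 in T6 and 21.6 in T7. T5 was highest for both. No label names the deleted exons, and counts over a whole gene include exons outside a deletion, so these values do not check the genotype label.

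Spread between tumours was described over the 10634 genes with a mean of at least 10 CPM. A gene was called variable where the highest tumour was at least 4 times the lowest, and steady where the ratio was under 1.5, with 0.5 CPM added to both. Of these genes, 654 (6.15%) were variable and 2957 (27.8%) were steady. In a chi-square test of equal CPM against counting error alone, with Benjamini-Hochberg adjustment, 10506 genes (98.8%) differed between tumours and nearly every gene passed. The median SD of log2 CPM was 0.28, and 10% of genes were under 0.15 and 10% over 0.58. All 128 genes that did not pass were steady. With a median in place of a mean of at least 10 CPM, 10358 genes remained, of which 521 were variable and 2949 steady. Without T3, 353 of 10517 genes were variable and 4240 steady.

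Calca, which encodes calcitonin and by alternative splicing the neuropeptide CGRP, took more counts than any other gene in every tumour. It held 13.9% of counts in genes in T1, 17.4% in T2, 9.06% in T3, 17.4% in T4, 8.40% in T5, 18.97% in T6 and 16.5% in T7. T5 and T3 were the low tumours, and the other 5 lay between 13.9% and 18.97%. The mean level was 145140 ± 42388 CPM (SD, n = 7), and the highest tumour was 2.26 times the lowest. That ratio was 2.68 with TMM-scaled library sizes and 2.55 with Calca left out of the total, and T5 was lowest and T6 highest under both. The counts do not separate the calcitonin and CGRP transcripts. Calcb, the related beta-CGRP gene, had a mean of 12.5 CPM, and both levels are uncertain as far as reads match both genes.

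Hormone and neuropeptide genes were few in number and uneven between tumours. Of 100 genes listed, 11 had no count in any tumour, 62 had a mean under 1 CPM, and 18 reached a mean of 10 CPM. All 18 also had a median of at least 10 CPM. Of these, 13 were variable and 1 was steady, against 6.15% and 27.8% of all genes of that level. The median SD of log2 CPM of the 18 was 1.05, against 0.28 over all genes of that level. Without T3, 11 of 17 were variable, against 353 of 10517 genes. The list was drawn up with earlier results of these data known, so these counts describe it and are not a test.

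Per kb of coding length, the mean level of Calca was 355734 CPM per kb, and the next hormone gene was Pnoc at 6997 CPM per kb. Pnoc encodes the precursor of nociceptin, an opioid-related neuropeptide. Its level was 5146 CPM in T1, 4245 in T2, 2486 in T3, 3031 in T4, 4321 in T5, 4438 in T6 and 7484 in T7. T7 was highest and T3 lowest, and the mean was 4450.1 ± 1613 CPM (SD, n = 7).

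Pth, Sst and Agt followed at 3088, 1691 and 1261 CPM per kb, in an order that did not hold in single tumours. The ranges of Pth and Sst overlapped, and Pth was above Sst in 3 of 7 tumours. Sst was in turn above Agt in 3 of 7. Agt encodes angiotensinogen, the precursor of angiotensin, and ranged from 879.9 CPM in T1 through a median of 1768 CPM to 2834 CPM in T3. Sst encodes somatostatin, a peptide that inhibits hormone release, and its level was 449.9 CPM in T1, 1482 in T2, 210.1 in T3, 329 in T4, 884 in T5, 359.6 in T6 and 404 in T7. Only T2 and T5 were above 449.9 CPM, the level of T1.

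Pth encodes parathyroid hormone, which raises blood calcium and is the product of the parathyroid glands beside the thyroid. Its level was 2423 CPM in T1, 547 in T2, 1425 in T3, 0.158 in T4, 842 in T5, 2049 in T6 and 172 in T7. T1 and T6 were the high tumours, and T4 held 3 counts, which is the floor, so no fold against T4 is given. Casr, the calcium-sensing receptor of both C cells and parathyroid cells, and Gcm2, a parathyroid transcription factor, were also highest in T1. Casr ranged from 58.4 CPM in T2 through a median of 93.4 CPM to 281 CPM in T1, and Gcm2 ranged from 0.0528 CPM in T4 through a median of 0.732 CPM to 9.40 CPM in T1, where T4 was under the floor. In T6, the other high tumour for Pth, Casr was 75.6 CPM, under its median. Gcm2 in T6 was 1.999 CPM, above its median but below its level of 5.27 CPM in T3. The part of parathyroid tissue in the Pth level was not tested. In bulk tumours, fewer cells of a type and less RNA per cell cannot be told apart.

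Igf1, a growth factor, ranged from 43.01 CPM in T3 through a median of 329 CPM to 696 CPM in T5, with T5 and T7 high and T3 low. Edn3, the endothelin-3 precursor, was high in T3 at 621 CPM and low in T5 at 9.54 CPM, while the other 5 tumours lay between 106 and 258 CPM. Pomc, the precursor of corticotropin and endorphin, was 2.72 CPM in T1, 21.2 in T2, 7.68 in T3, 28.4 in T4, 193 in T5, 101 in T6 and 36.7 in T7. T5 and T6 were the high tumours for Pomc, and T1 and T3 the low ones. Ppy and Pyy, the pancreatic polypeptide and peptide YY genes, were both highest in T3, at 54.2 and 67.5 CPM. Penk and Pdyn, opioid precursors, had means of 19.5 and 11.3 CPM and were lowest in T1.

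Of the inhibin genes, Inha, the alpha subunit, was the 1 steady hormone gene, with 21.1 to 31.5 CPM in all 7 tumours. Inhbb, the beta B subunit, was 167 CPM in T3 and 24.7 to 53.1 CPM in the rest. Among hormones of other endocrine organs, Ins1 and Ins2 for insulin and Ghrh for growth hormone-releasing hormone had no count in any tumour. Gcg for glucagon, Gast for gastrin, Vip and Crh had means under 1 CPM. Gal, the galanin gene, had a mean of 5.19 CPM.

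**Figure D1:**
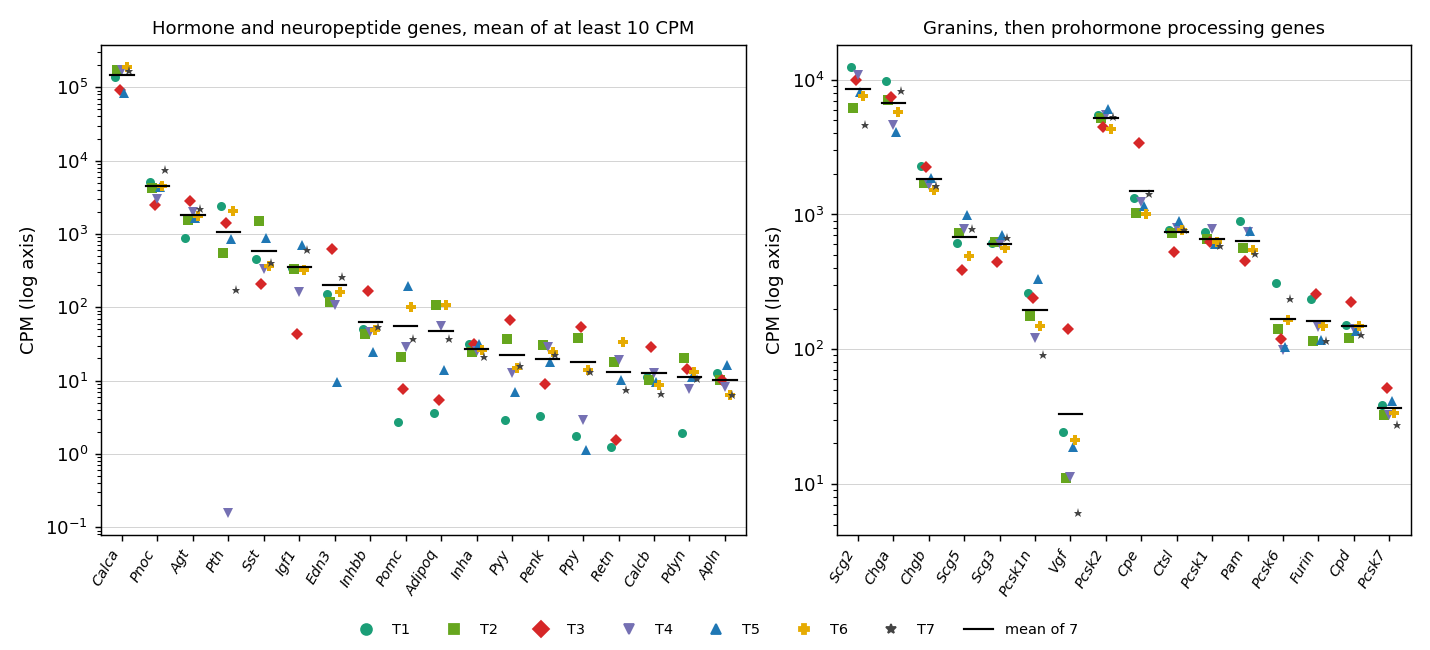
CPM on a log axis in each of the 7 tumours for the 18 hormone and neuropeptide genes with a mean of at least 10 CPM (left) and for the granins and prohormone processing genes of that level (right); black bars are means, and levels are not divided by length. Calca lies more than an order of magnitude above the other hormones, Pth is under 1 CPM in T4 alone, and Pcsk2 and Pcsk1 have narrow ranges.

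All 7 granin genes listed reached 10 CPM in the mean and 6 reached 100 CPM. Of the 7, 1 (Vgf) was variable and none was steady, against 6.15% and 27.8% of all genes. Without T3 none was variable and 1 was steady, against 353 and 4240 of 10517 genes. Scg2, secretogranin II, was 12433 CPM in T1, 6113 in T2, 10028 in T3, 10769.6 in T4, 8087 in T5, 7514 in T6 and 4606 in T7. Chga, chromogranin A, was 9707 CPM in T1, 7092 in T2, 7473 in T3, 4588 in T4, 4082 in T5, 5786 in T6 and 8205 in T7. T1 was highest for both, whereas the lowest tumour was T7 for Scg2 and T5 for Chga. By CPM per kb of coding length, Chga (4827) and Scg2 (4596) had overlapping ranges, and Chga was the higher in 4 of 7 tumours.

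Scg5, the chaperone 7B2 that activates the convertase PC2, and Chgb, chromogranin B, followed at 1073 and 906 CPM per kb, both below Scg2 in each tumour. Chgb had a narrow range, 1508 CPM in T6 to 2279 CPM in T1. Scg3 ranged from 446 CPM in T3 to 707 CPM in T5, and Pcsk1n, the inhibitor of convertase PC1, from 90.97 CPM in T7 to 329.6 CPM in T5. Vgf, a neurotrophin-inducible granin, was 140.3 CPM in T3 and 6.15 to 24.5 CPM elsewhere.

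Of 11 prohormone processing genes listed, 9 reached a mean of 10 CPM, none was variable and 2 were steady (5 without T3). Over all genes of that level, 6.15% were variable and 27.8% steady, and without T3 4240 of 10517 were steady. Pcsk2, convertase PC2, was 5502 CPM in T1, 5217 in T2, 4476 in T3, 5474 in T4, 6054 in T5, 4334 in T6 and 5326 in T7. Its highest tumour was only 1.40 times its lowest, while Calca and Pnoc in the same libraries spread 2.26 and 3.01 times. Pcsk1, convertase PC1, was steady too, from 579 CPM in T7 to 784 CPM in T4. Cpe, carboxypeptidase E, was 3371 CPM in T3 and 1006 to 1423 CPM in the others. Pam, which amidates peptides such as calcitonin, ranged from 451 CPM in T3 to 902 CPM in T1.

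Promoter sequences of Calca, Chga and Scg2 are shown because these genes carry the hormone and granin signal and because the cyclic AMP response element (TGACGTCA, or its first 5 letters TGACG) is a known element of neuroendocrine promoters. Each is the 250 bases before the start of the gene on its own strand, 5′ to 3′, from RefSeq with build GRCm38.p6; the counts were made on mm9, so genes were matched by symbol. Capitals mark TGACGTCA in Scg2 and TGACG in Calca and Chga.
Calca, chr7:114636358-114636607, minus strand: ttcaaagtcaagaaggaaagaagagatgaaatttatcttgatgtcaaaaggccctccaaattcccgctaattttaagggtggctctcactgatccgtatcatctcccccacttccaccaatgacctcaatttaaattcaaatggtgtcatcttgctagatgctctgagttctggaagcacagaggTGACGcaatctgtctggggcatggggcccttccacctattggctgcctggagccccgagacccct
Chga, chr12:102554691-102554940, plus strand: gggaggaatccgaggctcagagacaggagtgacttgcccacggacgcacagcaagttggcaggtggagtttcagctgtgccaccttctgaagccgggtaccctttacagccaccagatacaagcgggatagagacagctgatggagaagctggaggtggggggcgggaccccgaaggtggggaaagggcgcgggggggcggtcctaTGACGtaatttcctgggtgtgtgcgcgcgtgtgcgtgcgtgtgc
Scg2, chr1:79440027-79440276, minus strand: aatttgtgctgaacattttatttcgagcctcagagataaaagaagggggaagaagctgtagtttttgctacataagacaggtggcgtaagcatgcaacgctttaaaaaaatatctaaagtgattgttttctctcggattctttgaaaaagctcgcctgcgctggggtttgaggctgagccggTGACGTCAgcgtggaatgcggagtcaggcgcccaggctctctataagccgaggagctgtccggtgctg
The match lay 65 to 61 bases before the start in Calca, 44 to 40 in Chga and 68 to 61 in Scg2. Searched on both strands, TGACGTCA was in 478 of 27025 promoters of this length (1.77%), and in 253 of 7709 promoters of genes with a mean of at least 10 CPM (3.28%). It was in 2 of the 6 granin promoters in the table (Chgb and Scg2), 1 of 15 of the expressed hormones (Sst) and 1 of 8 of the processing genes (Pcsk1). The shorter TGACG, which any TGACGTCA also holds, was in 5 of 6 granin promoters, 2 of 15 hormone promoters (Calca and Sst) and 3 of 8 processing gene promoters, against 19.8% of all promoters and 32.0% of those of expressed genes. A match describes letters only and does not show binding.

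G protein-coupled receptors, which carry hormone and transmitter signals across the membrane, were mostly low. Of 192 listed, 97 had a mean under 1 CPM and 40 reached 10 CPM. The median SD of log2 CPM of the 40 was 0.39. Of the 40, 8 were variable and 3 steady, against 6.15% and 27.8% of all genes. Without T3 5 of 37 were variable, against 353 of 10517 genes. Per kb of coding length, Gcgr, the glucagon receptor, was first at 105 CPM per kb, followed by the adhesion receptor Gpr56 at 85.8 and the neurotensin receptor Ntsr2 at 75.5. Gcgr was 169 CPM in T1, 182 in T2, 193 in T3, 124 in T4, 132 in T5, 128 in T6 and 144 in T7, with all tumours within 1.56-fold. The ranges of neighbours in this order overlapped.

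Receptors for gut hormones related to glucagon were read beside Gcgr. Gipr, the receptor for gastric inhibitory polypeptide, ranged from 25.3 CPM in T6 through a median of 49.98 CPM to 83.04 CPM in T1. Glp1r, the receptor for glucagon-like peptide 1 and a C cell receptor in rodents, was 61.5 CPM in T1, 24.2 CPM in T3 and 6.14 to 11.5 CPM in the other 5. Glp2r, for glucagon-like peptide 2, had a mean of 0.0540 CPM. Vipr1, a receptor for vasoactive intestinal peptide, ranged from 70.8 CPM in T6 through a median of 92.7 CPM to 131 CPM in T1.

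Receptors for the hormones above were picked out after their values were seen. Among the 5 somatostatin receptors only Sstr3 was above 1 CPM, at 33.3 CPM in T6 to 52.01 CPM in T3, while Sstr1, Sstr2, Sstr4 and Sstr5 had means of 0.0310 to 0.113 CPM. Calcr, the calcitonin receptor, had a mean of 0.318 CPM. Calcrl, the CGRP receptor, had a mean of 6.08 CPM and its partner Ramp1 38.2 CPM. Ednrb, a receptor for endothelin-3, ranged from 7.71 CPM in T7 through a median of 11.4 CPM to 20.96 CPM in T4.

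Casr was among the variable receptors. The highest SDs of log2 CPM were those of Fzd10, a Wnt receptor (42.6 CPM in T3, 1.62 to 9.13 CPM elsewhere), Bdkrb2 for bradykinin (3.71 CPM in T5 to 51.1 CPM in T3), Glp1r, and Hrh3 for histamine (14.3 CPM in T3 to 75.00 CPM in T1). At the other end was Fzd8, also a Wnt receptor, from 10.8 CPM in T2 to 13.3 CPM in T3. Its spread did not exceed counting error (chi-square test, Benjamini-Hochberg adjusted p = 0.678).

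Kinase and other single-pass receptors were led by Gfra4, at 443 CPM per kb against 86.03 for Ramp1, the next in order. Gfra4 encodes the coreceptor for persephin, which signals through the kinase Ret. Its level was 405 CPM in T1, 418 in T2, 381 in T3, 505 in T4, 459 in T5, 377 in T6 and 265 in T7. On the scale of CPM per kb it was above Ramp1 in 7 of 7 tumours, and their ranges did not overlap. Ret, the receptor kinase of the GDNF family and the gene altered in hereditary medullary thyroid carcinoma, was 338 CPM in T1, 161 in T2, 244 in T3, 213 in T4, 219.6 in T5, 129 in T6 and 115 in T7. Both were lowest in T7, and Ret was highest in T1 and Gfra4 in T4. The related coreceptors Gfra1, Gfra2 and Gfra3 had means of 2.82, 2.97 and 1.03 CPM.

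Of the 98 receptors of this list, 52 reached 10 CPM. Without T3 only 1 of 49 was variable and 8 were steady, against 353 and 4240 of 10517 genes. With all tumours, 6 of the 52 were variable and 5 steady, against 6.15% and 27.8% of all genes. The variable ones with the largest SD were Prlr for prolactin (181 CPM in T7, 21.7 to 58.3 CPM elsewhere), Csf1r of macrophages (highest in T3 at 49.2 CPM), Insrr, the insulin receptor-related receptor (49.2 CPM in T3 to 249 CPM in T1), and Ephb2 (214 CPM in T3, 45.6 to 117 CPM elsewhere). All 5 Eph receptors of at least 10 CPM, a group picked after its values were seen, were highest in T3, as were 33.7% of all genes of that level. The 5 steady members were Bmpr1a (91.7 CPM in T2 to 126 CPM in T5) and Acvr1 (23.5 CPM in T6 to 31.8 CPM in T3), receptors of bone morphogenetic proteins, the Wnt receptor Ryk (72.96 CPM in T3 to 104 CPM in T5), the leukaemia inhibitory factor receptor Lifr (34.4 CPM in T5 to 45.4 CPM in T4) and the insulin receptor Insr (52.6 CPM in T2 to 78.9 CPM in T3).

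Nuclear receptors, transcription factors switched by steroids and other small ligands, were present at modest levels. Of 48, 21 reached a mean of 10 CPM and none 100 CPM. Of the 21, 3 were variable and 5 steady, against 6.15% and 27.8% of all genes. Without T3 1 of 20 was variable and 8 were steady, against 353 and 4240 of 10517 genes. Nr1h2, the liver X receptor beta, was first per kb of coding length at 58.9 CPM per kb, with 63.5 CPM in T7 to 90.2 CPM in T3. Nr1d2, the clock repressor REV-ERB beta, ranged from 69.6 CPM in T7 through a median of 84.9 CPM to 123 CPM in T5, and Nr3c1, the glucocorticoid receptor, from 68.5 CPM in T6 through a median of 74.04 CPM to 101 CPM in T5, and both were highest in T5. Rxrb (41.6 CPM in T4 to 52.6 CPM in T1) and Nr2f6 (37.7 CPM in T2 to 48.3 CPM in T3) were steady. Vdr, the vitamin D receptor, was 40.05 CPM in T3, 24.3 CPM in T1 and 3.74 to 9.35 CPM in the other 5.

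Transcription factors of the 520-gene list reached 10 CPM in 250 cases. Of these, 24 were variable and 38 steady, with a median SD of log2 CPM of 0.35. Over all genes of that level, 6.15% were variable and 27.8% steady. Without T3, 8 of 245 factors were variable and 73 steady, against 353 and 4240 of 10517 genes. Per kb of coding length, Xbp1 (438 CPM per kb), Hhex (355), Jund (347), Nkx2-1 (268) and Hoxb8 (253) were among the highest. The ranges of Hhex and Jund overlapped on that scale, as did those of Jund and Nkx2-1 and of Nkx2-1 and Hoxb8.

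Xbp1, which drives the secretory pathway's unfolded protein response, was 341 CPM in T1, 355 in T2, 344 in T3, 357 in T4, 369 in T5, 322 in T6 and 367 in T7. Its highest tumour was 1.15 times its lowest, the smallest SD of log2 CPM in the list (0.07). Atf4 of the stress response (146 CPM in T1 to 174 CPM in T7) and Jund of the AP-1 family (321 CPM in T1 to 396 CPM in T5) were steady as well. Tfeb, a regulator of lysosomal genes, did not exceed counting error in spread (chi-square test, Benjamini-Hochberg adjusted p = 0.320).

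Some transcription factors known from C cells, endocrine cells and foregut endoderm are given next, picked in part after their values were seen. Nkx2-1, shared by follicular and C cell precursors, was steady at 327 CPM in T1, 292 in T2, 362 in T3, 258 in T4, 291 in T5, 265 in T6 and 298 in T7. Hhex ranged from 196 CPM in T7 through a median of 259 CPM to 418 CPM in T3, Foxa1 from 64.6 CPM in T6 through a median of 101 CPM to 131 CPM in T3, Foxa2 from 76.3 CPM in T6 through a median of 111 CPM to 134 CPM in T5 and Isl1 from 109.6 CPM in T6 through a median of 129 CPM to 179 CPM in T5. Foxa3, the third forkhead A gene, had a mean of 0.377 CPM. Insm1, a zinc finger factor of endocrine cells, ranged from 115 CPM in T7 through a median of 216 CPM to 265 CPM in T3. Neurog3, a basic helix-loop-helix factor of endocrine precursors, had a mean of 69.7 CPM (15.03 CPM in T3 to 131 CPM in T1), and Neurod1, a related factor, had a mean of 0.0598 CPM.

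Homeobox genes of the Hoxb cluster stood out from the other Hox clusters, a pattern picked out after the values were seen. All 8 genes from Hoxb2 to Hoxb9 had a mean of at least 10 CPM, while none of 11 Hoxa genes, 1 of 9 Hoxc genes (Hoxc4, 11.8 CPM) and none of 9 Hoxd genes did. Summed over a cluster, Hoxb ranged from 383 CPM in T4 to 779.7 CPM in T7. The sums for Hoxa, Hoxc and Hoxd were at most 8.71, 19.7 and 3.29 CPM in any tumour. Hoxb8 was 262 CPM in T1, 151 in T2, 230.4 in T3, 117 in T4, 177 in T5, 114 in T6 and 239 in T7. Hoxb2 was steady (52.7 CPM in T4 to 70.9 CPM in T7), but Hoxb9 at the other end of the expressed block was the most variable transcription factor, with 80.4 CPM in T7, 15.6 CPM in T1 and 2.35 to 8.94 CPM in the other 5. Hoxb1 and Hoxb13, on either side, had means of 0.392 and 0.0239 CPM.

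**Figure D2:**
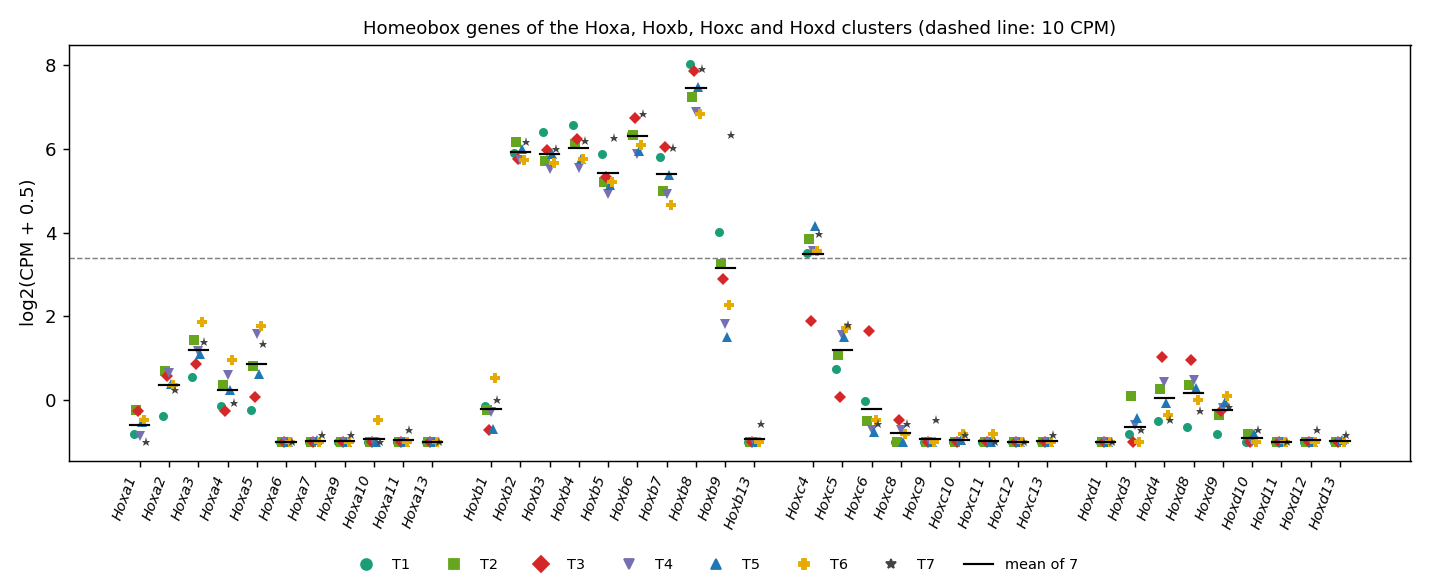
Level of each listed Hox gene as log2(CPM + 0.5) in the 7 tumours, ordered by number within each cluster; black bars are means and the dashed line is 10 CPM. Hoxb2 to Hoxb8 lie above the line in all 7 tumours, Hoxb9 is above it in T7 and T1, and nearly all genes of the other clusters lie below it.

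Other factors were high in 1 or a few tumours. Tbx2, a T-box factor, was 149.5 CPM in T1, 35.8 in T2, 13.8 in T3, 27.03 in T4, 228 in T5, 75.04 in T6 and 221 in T7, with T5 and T7 high and T3 low. Irf7, an interferon regulatory factor, was 180.4 CPM in T3 and 9.11 to 22.4 CPM elsewhere, Stat3 521 CPM against 172 to 296 CPM, and Onecut2 75.9 CPM against 6.48 to 20.1 CPM. Of 12 Irf and Stat genes with a mean of at least 10 CPM, 9 were highest in T3. Both this group and the next were picked after their values were seen. Of 8 immediate early genes of that level, such as Fos (138 CPM in T3, 14.3 to 80.1 CPM elsewhere) and Egr1 (554 CPM against 81.5 to 212 CPM), 7 were highest in T3. For reference, T3 was the highest tumour for 33.7% of all genes of at least 10 CPM, and for 25.5% with TMM-scaled library sizes.

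**Figure D3:**
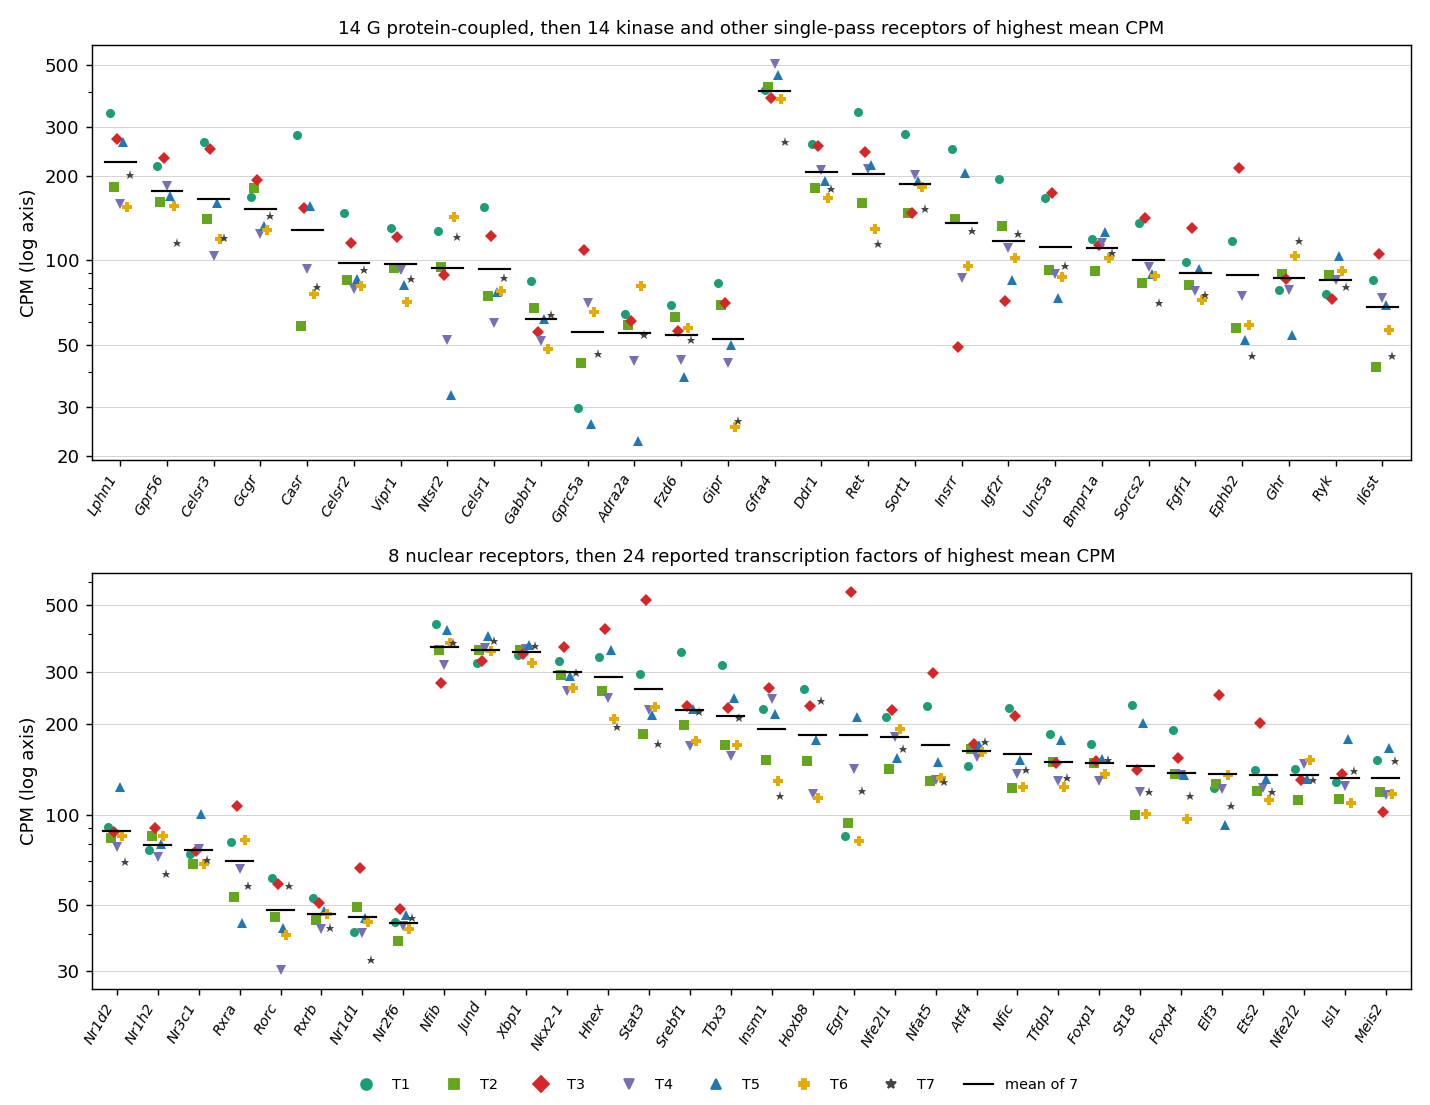
CPM on a log axis in each of the 7 tumours for the 14 G protein-coupled and 14 single-pass receptors (top) and the 8 nuclear receptors and 24 transcription factors (bottom) of highest mean CPM in their lists among the genes reported; black bars are means, and levels are not divided by length. The mean of Gfra4 is the highest bar on the undivided CPM axis of the receptors, Xbp1 and Jund have tight points, and T3 is far above the rest for Ephb2, Stat3 and Egr1.

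Side by side, 13 of 18 expressed hormone genes and 24 of 250 transcription factors were variable, beside 6.15% of all genes. The count was 8 of 40 for G protein-coupled receptors, 6 of 52 for single-pass receptors and 3 of 21 for nuclear receptors. Without T3 the counts were 11 of 17 hormones and 8 of 245 transcription factors, beside 353 of 10517 genes. They were 5 of 37 G protein-coupled, 1 of 49 single-pass and 1 of 20 nuclear receptors. With TMM-scaled library sizes the counts were 12 of 17 hormones, 25 of 251 transcription factors, 9 of 40 G protein-coupled, 4 of 51 single-pass and 4 of 21 nuclear receptors. Over all genes, 615 of 10618 were variable and 3717 steady under that scaling, and 65 of 251 transcription factors were steady. A gene can pass the minimum through 1 high tumour. With a median of at least 10 CPM the variable genes were 13 of 18 hormones and 19 of 239 transcription factors. They were 6 of 36 G protein-coupled, 6 of 48 single-pass and 2 of 20 nuclear receptors, and 521 of 10358 over all genes. No difference between lists was tested.

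**Figure D4:**
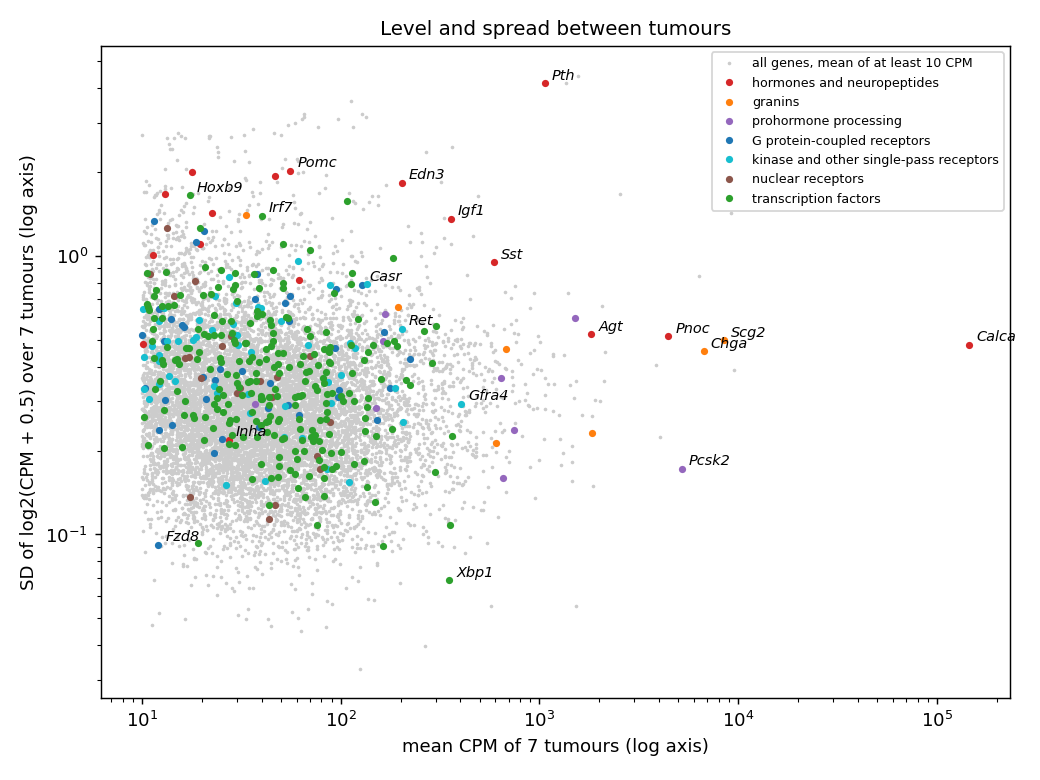
Mean CPM (x, log axis) against the SD of log2(CPM + 0.5) over the 7 tumours (y, log axis) for the genes with a mean of at least 10 CPM, with list members coloured. Most of the hormone genes lie above the bulk of genes, and Pcsk2 and Xbp1 lie low at high levels. Pth, which is at the floor in T4, has the largest spread of the list members.

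Over all genes, the smallest SD of log2 CPM was that of Kdelr1, which returns proteins to the endoplasmic reticulum, with 129 CPM in T1, 129 in T2, 124 in T3, 127 in T4, 122 in T5, 123 in T6 and 125 in T7. Txndc5, a protein disulfide isomerase, was second, from 256 CPM in T3 to 278 CPM in T7. Apeh, Ppt1 and Tmem115 came next, each within 1.11-fold.

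Predicted gene models aside, the 10 genes with the largest SD of log2 CPM were Pth, Xist, the lipocalins Lcn13 and Lcn14, the muscle genes Myh1, Acta1, Atp2a1 and Tnnt3, Ucp1 of brown fat and Scgb1a1 of airway epithelium. Lcn13 was 5993 CPM in T7, 3262 CPM in T3 and at most 130.1 CPM in the others. Xist, the RNA of the inactive X chromosome, was 5.65 CPM in T1, 2.21 CPM in T6 and 1589 to 3355 CPM in the other 5. Rn45s, the ribosomal RNA precursor, was also variable, with 965 CPM in T3 and 3979.8 to 16065 CPM elsewhere.

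Marker genes of neighbouring and infiltrating tissue varied between tumours. Variable genes made up 6.15% of all genes of at least 10 CPM, beside which the counts of variable markers here stand. All 10 skeletal muscle genes were variable and highest in T6, the highest tumour for 5.60% of all genes of at least 10 CPM. Only 3 of the 10 had a median of at least 10 CPM. The 10 summed to 9.22 CPM in T3 to 3697 CPM in T6. Of the 10 adipocyte genes, 8 of 9 at 10 CPM were variable, and the sum ran from 69.4 CPM in T1 to 1678 CPM in T6. Adipoq and Retn, the adiponectin and resistin genes, are members of both the hormone and the adipocyte list; Adipoq was highest in T2 and Retn in T6. All 9 macrophage genes were variable and highest in T3, where they summed to 1568 CPM against 281 to 825 CPM elsewhere. T3 was the highest tumour for 33.7% of all genes of at least 10 CPM, and for 25.5% with TMM-scaled library sizes. Without T3 none of 7 macrophage genes was variable, against 353 of 10517 genes. With TMM-scaled library sizes, 8 macrophage genes reached 10 CPM, 6 were variable and all 8 were highest in T3. Under that scaling 615 of 10618 genes were variable.

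Thyroid follicular cells were represented by Tg, the thyroglobulin gene, at 8719 CPM in T1, 6044 in T2, 1562 in T3, 7753 in T4, 6174 in T5, 6994 in T6 and 7446 in T7. T3 was far below the rest for Tg, and all 6 follicular genes of at least 10 CPM were lowest in T3. Of these 6 genes, 3 were variable, against 6.15% of all genes of that level. Of the 654 variable genes, 118 were lowest in T3, and of the 250 transcription factors of at least 10 CPM, 22 were. The share of all genes of that level that were lowest in T3 was not counted. Fibroblast genes summed to 3495 CPM in T3 and to 512 to 1915 CPM elsewhere. In T3 the collagen genes Col3a1, Col1a1 and Col1a2 held 1248, 1104 and 833 CPM of that sum. Of the 8 fibroblast genes, 4 were highest in T3, 3 in T5 and 1 in T4. T3 and T5 were the highest tumours for 33.7% and 30.3% of all genes of at least 10 CPM. Of 7 airway and squamous epithelium genes, only 3 reached a mean of 10 CPM: Bpifa1, Scgb1a1 and Scgb3a2. All 3 were variable, against 6.15% of all genes of that level. They were also highest in T7, the highest tumour for 5.35% of all genes of that level. Bpifa1, a secreted airway protein, reached 1344 CPM in T7. None of the 5 cartilage genes or the 5 erythroid genes reached 10 CPM, and Hba-a1 and Hba-a2, near-identical copies, were listed at 0 in all tumours. The part of these tissues in the spread of hormone, receptor and transcription factor genes was not tested.

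**Figure D5:**
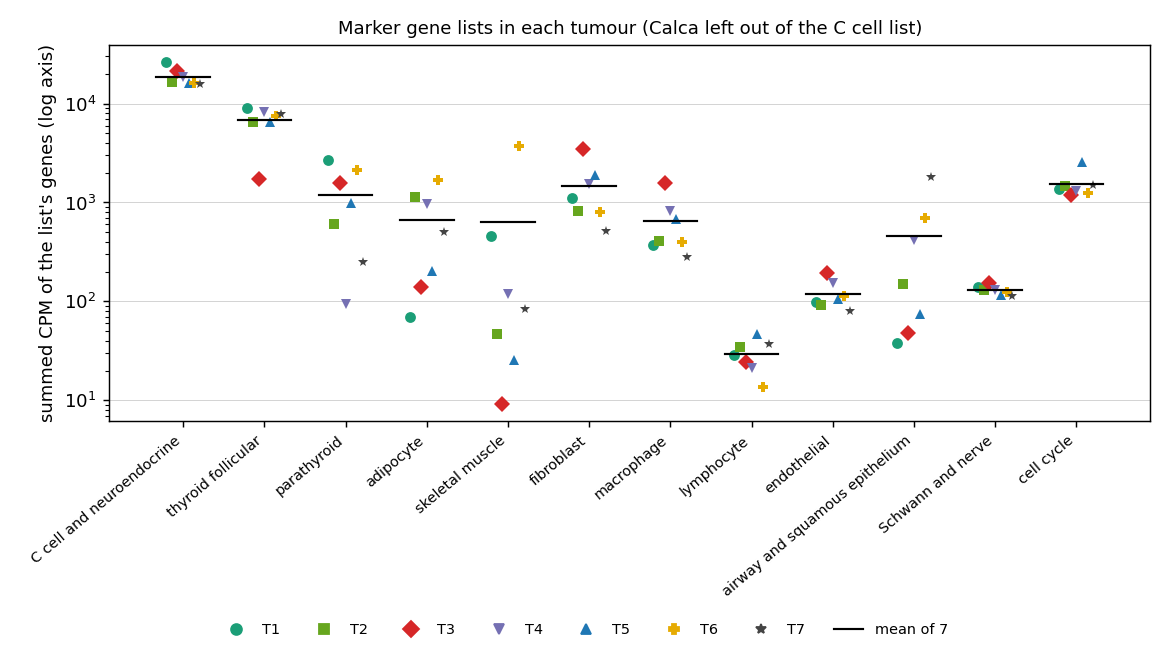
Summed CPM of the genes of each marker list (y, log axis) in the 7 tumours; black bars are means, and Calca is left out of the C cell list. The C cell sum, whose largest members are Scg2 and Chga, ranges from 15782 to 26483 CPM. The muscle sum is high in T6, the follicular sum low in T3 and the airway sum high in T7.

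All 14 C cell and neuroendocrine markers reached a mean of 10 CPM, as did 10634 of the 23284 genes. All 10 skeletal muscle genes, all 9 macrophage genes and 6 of 11 follicular genes did so too. The list was chosen with earlier results of these data known, so this count does not check the labelled tumour type. Of the 14, 2 were variable and 1 was steady, against 6.15% and 27.8% of all genes of that level. Without T3 none of 13 was variable, against 353 of 10517 genes. Without Calca, the C cell and neuroendocrine markers summed to 15782 CPM in T7 to 26483 CPM in T1. The largest members of that sum were Scg2 and Chga, with means of 8507 and 6705 CPM. All 20 cell cycle genes were highest in T5, the deepest library and the one with the lowest share of Calca, and none was variable. Mki67, a proliferation marker, was 411 CPM in T5 and 145 to 202 CPM elsewhere. With TMM-scaled library sizes 19 of the 20 were highest in T5. Over all genes of at least 10 CPM, T5 was the highest tumour for 30.3%, and for 16.1% with TMM-scaled library sizes.

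Calca was compared across tumours with 7 list scores and the library total, 8 relations in all, with Calca left out of the totals. None passed after adjustment (exact two-sided permutation tests, n = 7, Benjamini-Hochberg). The largest r was that with adipocyte genes, 0.783 (exact permutation p = 0.0403, adjusted p = 0.168), with a Spearman rho of 0.857 (exact permutation p = 0.0238, adjusted p = 0.190). It was 0.937 without T1 and T3, the tumours farthest from the median. For follicular genes r was 0.728 (exact permutation p = 0.0421, adjusted p = 0.168), rho was 0.786 (exact permutation p = 0.0480, adjusted p = 0.192), and r was 0.705 without T3 and T4. Before adjustment, these were the only relations whose Pearson p was under 0.05. For C cell markers r was -0.500 (exact permutation p = 0.2530, adjusted p = 0.4003), rho was -0.714 (p = 0.0881, adjusted p = 0.2349), and r was -0.602 without the 2 farthest tumours. For fibroblast genes r was -0.601 (exact permutation p = 0.1825, adjusted p = 0.3651), rho was -0.429 (p = 0.3536, adjusted p = 0.6615), and r was 0.420 without the 2 farthest tumours. For macrophage genes r was -0.647 (exact permutation p = 0.1242, adjusted p = 0.3312), rho was -0.286 (p = 0.5560, adjusted p = 0.6615), and r was -0.781 without the 2 farthest tumours. For endothelial genes r was -0.212 (exact permutation p = 0.6875, adjusted p = 0.6875), rho was 0.214 (p = 0.6615, adjusted p = 0.6615), and r was 0.210 without the 2 farthest tumours. For cell cycle genes r was -0.472 (exact permutation p = 0.3002, adjusted p = 0.4003), rho was -0.214 (p = 0.6615, adjusted p = 0.6615), and r was 0.066 without the 2 farthest tumours. For the library total r was -0.359 (exact permutation p = 0.4480, adjusted p = 0.5120), rho was -0.321 (p = 0.4976, adjusted p = 0.6615), and r was -0.013 without the 2 farthest tumours. Single tumours turned some of these signs. Without T5 alone r was 0.665 for cell cycle genes and 0.799 for the library total, and without T3 alone it was -0.900 and -0.909. For endothelial genes r was 0.317 without T3 alone. For fibroblast genes r stayed negative without any 1 tumour and was positive without both T3 and T5, the pair left out above. None of these values passed after adjustment.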

How the data were processed

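RNA of 7 mouse thyroid carcinomas was sequenced after TRIzol extraction, oligo(dT) selection and NEBNext Ultra library preparation, per the labels' protocols. For each tumour the authors deposited a table of raw counts for 23284 genes. Its 5 rows that name no gene were set aside, among them reads in no gene (13.1% to 17.6% of a table) and reads with several alignments (10.9% to 18.5%). The submitters' processing notes name HTSeq 0.6.1, TopHat2 2.0.12, bcl2fastq 1.8.2 and the build mm9. Neither annotation nor strand setting is given there, and overlapping and antisense genes, such as those of the Gnas locus, cannot be told apart. Tables of the other genotype were not used here.

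Counts were divided by the total in genes, and logs are log2(CPM + 0.5). Spread was tested by a Poisson index of dispersion (chi-square) over genes with a mean of at least 10 CPM, checked on simulated data. Floors cover counting error only. Other scalings came from edgeR 4.0.16 (TMM) and DESeq2 1.42.0 in R 4.3.3. The TMM factors were 0.930 to 1.10. Other steps used Python 3.11.15, pandas 2.3.3, scipy 1.17.1, numpy 2.4.6 and, for plots, matplotlib 3.10.9. Coding lengths are the longest per gene in GENCODE vM21.

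The genes named are Calca, Chga, Scg2, Rb1, Trp53 and Crebbp, the 10 of highest mean CPM, the 8 of highest mean CPM and the 4 steadiest and 4 most variable of each receptor, hormone and transcription factor list, all granins and processing genes of at least 10 CPM, the 10 steadiest and 10 most variable of all genes without predicted models, and the 3 of highest mean CPM of each marker, cell cycle and reference list. A few genes under this rule are left out of the text. Other genes named were chosen after their values were seen. The tumours and lists were chosen with earlier results of these data known. Alternatives were 3 scalings, other minimum levels, pseudocounts and class rules, the median, and leaving out each tumour; exonic length and the lists under each scaling were added after seeing the data.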

Additional observations from a re-analysis of the deposited data

Results flagged for a closer look

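Values of single tumours were searched for in 169 genes, sums and totals, and 40 lay far from the other 6 tumours by the 95% criterion of Dixon, which sets the gap to the nearest tumour against the whole range. Chance gives about 1 in 20 for normally distributed values not chosen by their spread, and CPM was searched here without logs. The genes searched include the most variable of each list and of all genes, chosen on these same tumours, so the 2 rates cannot be compared. T3 held 18 of them, T5 7, T6 6, T7 5 and T1 4, and T2 and T4 none.

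In T3 the genes far above the others, each with its CPM and the range of the other 6 tumours, were Edn3 621 (9.54 to 258), Inhbb 167 (24.7 to 53.1), Fzd10 42.6 (1.62 to 9.13), Ephb2 214 (45.6 to 117), Stat3 521 (172 to 296), Irf7 180.4 (9.11 to 22.4), Onecut2 75.9 (6.48 to 20.1) and Vgf 140.3 (6.15 to 24.5). T3 was also far above, in CPM, for Cpe 3371 (1006 to 1423), Cpd 222 (122 to 150.5), Col1a1 1104 (64.4 to 346), Col1a2 833 (88.96 to 320.1), C1qa 249 (55.3 to 129), C1qc 204 (31.9 to 104) and B2m 4408 (1214 to 2513). The gene far below the others in T3 was, in CPM, Tg 1562 (6044 to 8719).

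T5 was far above the others, in CPM, for Nr1d2 123 (69.6 to 90.7), Nr3c1 101 (68.5 to 76.5), Cd8a 5.35 (0 to 0.704), Mki67 411 (145 to 202) and Top2a 290.1 (102 to 133). Genes far higher in T6, in CPM, were Myh1 585 (0 to 178), Acta1 759 (0.219 to 95.6), Atp2a1 721 (0.658 to 156), Tnnt3 599 (0.219 to 43.6) and Hbb-b2 0.4998 (0 to 0.157). Hbb-b2 was near the floor, which was 0.214 CPM in T6, so its place here is uncertain. Hbb-b1 was 0.857 CPM in T6 and 0.959 CPM in T5. Genes far higher in T7, in CPM, were Prlr 181 (21.7 to 58.3), Hoxb9 80.4 (2.35 to 15.6), Scgb1a1 391 (0.329 to 22.8) and Scgb3a2 56.05 (0.439 to 20.9). Genes far higher in T1, in CPM, were Crebbp 95.8 (36.7 to 57.7), Glp1r 61.5 (6.14 to 24.2), Sort1 284 (148 to 201) and Srebf1 349 (169.9 to 230.1). Among sums and totals, T5 had 57.3 M counts in genes (9.11 to 18.9 M in the rest) and 2580.0 CPM of cell cycle genes (1179 to 1507). T3 had 1730.2 CPM of follicular genes (6468 to 9009) and 1568 CPM of macrophage genes (281 to 825). T6 had 3697 CPM of skeletal muscle genes (9.22 to 459), and T7 1814 CPM of airway genes (37.5 to 699). No cause of these values was tested.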

How the results depend on the processing

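The count of variable genes was 654 of 10634. It was 1641 of 14526 with a minimum mean of 1 CPM and 190 of 4371 with a minimum of 50 CPM, where more or fewer genes enter. Leaving out 1 tumour gave 353 to 645, and T3 was the tumour whose absence gave 353. The count of steady genes was 2957, with 1328 at a minimum of 50 CPM, 3140 to 4240 without 1 tumour and 3717 with TMM-scaled library sizes. Spread beyond counting noise was called for 10506 genes, 4364 at a minimum of 50 CPM, and 10063 to 10521 without 1 tumour. The Pearson r of Calca with adipocyte genes was 0.726 to 0.956 without 1 tumour; it passed after adjustment without T1 (exact permutation adjusted p = 0.0333), and the cause was not tested. Without 1 tumour, r was 0.650 to 0.972 for follicular, -0.679 to -0.328 for C cell, -0.809 to -0.426 for fibroblast, -0.801 to -0.399 for macrophage, -0.528 to 0.317 for endothelial and -0.900 to 0.665 for cell cycle genes, and -0.909 to 0.799 for the library total. Of the other alternatives for that family, 71 kept their side of the threshold. Mean CPM of the named genes moved by more than 1 SD in 37 recomputations and by less in 1591, and for the SD of log2 CPM these numbers were 19 and 120. Order by level changed with length: per kb of coding length Chga was above Scg2 and Gcgr above Lphn1, the reverse of mean CPM. Per kb of exonic length, chosen after seeing the data, Scg2 was again above Chga, Chgb above Scg5 and Agt above Sst, Ddr1 and not Ramp1 was next after Gfra4, and Jund was first among transcription factors. Depth limits genes near the floor, such as Pth in T4. No paired analysis was possible because the 7 tumours are 1 group and no groups were compared.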
